A study of Homo sapiens with 9 samples.

Results

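ATP6 and ATP8 are the genes of the mitochondrial genome that encode subunits of ATP synthase. In the deposited table they are 2 of 159067 rows, found by their RefSeq protein accessions YP_003024031.1 (ATP6) and YP_003024030.1 (ATP8), and they belong to the 13 rows for mitochondrial protein genes. The table comes from U-87 cells, a human glioblastoma line studied as a model of resistance to temozolomide (TMZ, an alkylating drug), and asks how evernic acid (EA, a lichen metabolite) alone or with TMZ alters gene expression. All cells were grown in the same medium and collected after 24 h, and libraries were made from the 3′ ends of transcripts. The labels give 3 libraries of untreated cells (Control1, Control2 and Control3) and 1 library each of EA30 and EA45 (EA at 30 and 45 µM), TMZ600 (TMZ at 600 µM), TMZ320EA35 (320 µM TMZ with 35 µM EA), TMZ380EA20 (380 µM TMZ with 20 µM EA) and TMZ580EA20 (580 µM TMZ with 20 µM EA). With 1 library per treatment of 1 cell line, no treatment was replicated, and nothing in the labels says that the 3 controls were separate cultures, so p-values measure only the spread between these libraries.

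ATP synthase makes most of the ATP of respiring cells. Its membrane part lets protons flow back into the mitochondrial matrix, and the catalytic head, built from nuclear-encoded subunits, uses that flow. ATP6 encodes subunit a, which forms the proton path beside the ring of c subunits, and ATP8 encodes a small membrane subunit next to it. In human mitochondria both are read from the same heavy-strand precursor, and their reading frames overlap on 1 bicistronic mRNA, so both frames are normally carried by the same RNA molecule. That mRNA is separated from the COX3 mRNA at a junction that holds no tRNA, unlike most junctions of the mitochondrial genome.

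The sequences are shown because the overlap, the lack of a separate 3′ end for ATP8 and the copies in the nuclear genome bear on what a count on each gene means. On the plus strand of GRCh38, ATP8 lies at chrM:8366-8572 and ATP6 at chrM:8527-9207, and each is a single coding exon in GENCODE release 29. The last 46 of the 207 bases of ATP8 are also the first 46 of the 681 bases of ATP6, and ATP6 shares its last base with COX3. In the lines below, capitals mark the 46 shared bases in ATP8 and at the start of ATP6, the last 3 bases of ATP6 and the start codon of COX3.
ATP8: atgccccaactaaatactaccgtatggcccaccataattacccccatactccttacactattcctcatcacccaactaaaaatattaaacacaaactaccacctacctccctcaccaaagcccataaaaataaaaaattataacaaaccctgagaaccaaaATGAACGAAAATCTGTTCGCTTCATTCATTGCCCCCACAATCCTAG
ATP6 start: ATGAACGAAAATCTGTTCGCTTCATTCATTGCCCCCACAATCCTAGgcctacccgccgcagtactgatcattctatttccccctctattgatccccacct
ATP6 end: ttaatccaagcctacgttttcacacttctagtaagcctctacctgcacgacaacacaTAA
COX3 start: ATGacccaccaatcacatgcctatcatata

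ATP8 held 38.6% A on its coding strand, and the other 12 mitochondrial protein genes between 19.6% (ND6) and 31.3% (ND2), with 30.2% in ATP6. Its longest run of A had 6 bases and started at position 8497, upstream of the overlap. The longest run in ATP6 had 5, and other genes had runs as long as that of ATP8 or longer, with 6 in ND1, 7 in ND2, COX1 and ND4 and 8 in ND5. Chromosome 1 carries a nuclear copy of both genes. The copy of ATP8, MTATP8P1 (chr1:633535-633741), differed from it at 5 of 207 bases and was 97.6% identical. The copy of ATP6, MTATP6P1 (chr1:633696-634376), differed at 10 of 681 bases and was 98.5% identical. Of all windows of 50 bases, 8.23% in ATP8 and 46.7% in ATP6 also occurred without a mismatch in a nuclear transcript of GENCODE. For windows of 75 bases the values were 0% and 28.0%, and for 100 bases 0% and 11.9%. The read length is not given in the sources used here. How reads that match both places, or that touch the 46 shared bases, were counted is not given in the sources used here, nor is the use of strand, so the split of counts between these overlapping genes is uncertain.

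The libraries held between 213566 (TMZ320EA35) and 490235 (EA30) counts, and the 13 mitochondrial genes took 48.7 ± 0.34% of them in the controls (SD, n = 3) and 51.7 to 58.7% in the treated libraries. Only 5850 of the 159067 rows had a count in any library. These percentages therefore describe the deposited counts and need not equal the mitochondrial part of the cells' RNA. The deposited counts are relative: a gene's lower share and a higher output of all other RNA cannot be told apart, nor can fewer cells and less RNA per cell. Of 12 genes chosen as markers of U-87 cells, 9 were listed at 0 in every library, among them VIM, CD44 and SOX2, and NES, which encodes the intermediate filament nestin, was the one abundant enough for testing. NES was counted 152, 169 and 174 times in untreated cells and 15 to 56 times after treatment, and fell in all 6 treatments, with log2 fold changes from -3.48 (EA45) to -1.84 (TMZ600) and edgeR adjusted p of 2.48e-05 at most. Its part in the results on ATP6 and ATP8 was not tested. Of 4 markers of leukocytes, epithelium, endothelium and liver, 3 were at 0 and ALB had 0 to 2 counts per library. Because 9 markers of U-87 cells were at 0 as well, these values cannot show that other cell types were absent.

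ATP8 and ATP6 were about equally frequent in untreated cells, and the ratio between them was lower in every library that had received EA. Control1 had 6065 counts on ATP8 and 5545 on ATP6, a ratio of 1.09. Control2 had 5642 and 5216, a ratio of 1.08. Control3 had 5107 and 5989, a ratio of 0.853. The controls therefore spread over 0.36 on the log2 scale, and the 95% exact binomial interval of Control3 (0.821 to 0.885) lay below those of Control1 (1.05 to 1.13) and Control2 (1.04 to 1.12). These intervals cover counting error only.

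With EA alone the ratio was 0.491 in EA30, from 5993 counts on ATP8 and 12215 on ATP6. It was 0.295 in EA45, from 2107 and 7137 counts. Both values lay below the lowest control. With TMZ alone, TMZ600 had 6595 counts on ATP8 and 7187 on ATP6, a ratio of 0.918 that fell inside the range of the controls. Among the combinations the ratio was 0.343 in TMZ320EA35, from 1239 and 3609 counts, and 0.328 in TMZ380EA20, from 2491 and 7599 counts. TMZ580EA20 had the highest ratio of the combinations, 0.649, from 5117 and 7884 counts. From high to low the order was Control1, Control2, TMZ600, Control3, TMZ580EA20, EA30, TMZ320EA35, TMZ380EA20 and EA45. The intervals of Control1 and Control2 overlapped, as did those of TMZ320EA35 (0.322 to 0.366) and TMZ380EA20 (0.313 to 0.343), and the intervals of TMZ600 (0.887 to 0.949) and Control3 did not, while every step below Control3 but the one between TMZ320EA35 and TMZ380EA20 exceeded counting error. The step from TMZ380EA20 to EA45 was within the spread of the controls.

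**Figure D1:**
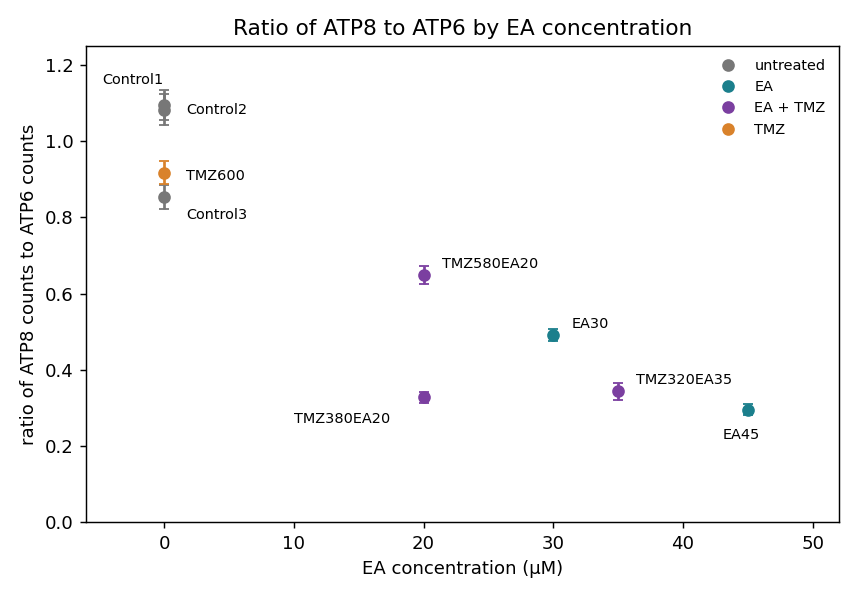
Ratio of ATP8 counts to ATP6 counts (y axis) against the concentration of EA in µM (x axis), 1 point per library, with 95% exact binomial intervals that cover counting error only; colours separate untreated cells, EA, TMZ and combinations. The 4 libraries without EA lie between 0.853 and 1.09 and the 5 with EA between 0.295 and 0.649, and at 20 µM EA the libraries with 380 and 580 µM TMZ lie apart.

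The mean log2 ratio was -1.11 ± 0.64 across the 6 treated libraries (SD, n = 6), against 0.0042 ± 0.20 across the controls (SD, n = 3). The treated libraries were lower by a log2 difference of -1.12 (exact permutation test, two-sided, p = 0.0476, where 6 against 3 libraries allow 0.0238 at the lowest), and 5 of the 6 lay below all controls. TMZ600 was the exception. Without TMZ600 the exact permutation p was 0.0357, and without any other single library it was between 0.0714 and 0.143. Taken as the 5 libraries with EA against the 4 without, a grouping chosen after the values were seen, the log2 difference was -1.28 with no overlap between the groups (exact permutation test, two-sided, p = 0.0159, the smallest these group sizes allow). The design gives no replicate of a dose, so these tests treat libraries of different doses as 1 group.

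Each gene was next taken as its share of the counts on all 13 mitochondrial genes, which removes the rise of the mitochondrial fraction. ATP8 took 4.63, 4.48 and 3.65% in Control1, Control2 and Control3. It took 2.10% in EA30 and 1.18% in EA45, and 4.20% in TMZ600. In TMZ320EA35, TMZ380EA20 and TMZ580EA20 the share was 1.06, 1.18 and 2.63%. The 5 libraries with EA thus lay below all controls and TMZ600 among them. Separation from the 3 controls was not particular to ATP8. The shares of COX3 and ND3 lay below all controls in all 6 treated libraries, and those of ND1 and ND4L above them in all 6. The log2 difference between treated and control libraries was -1.23, equal to 0.426 times the control level (exact permutation test, two-sided, p = 0.0476). Between libraries with and without EA it was -1.47 (exact permutation test, two-sided, p = 0.0159). That grouping was chosen after the values were seen, and this p is the smallest it allows, so it only restates the lack of overlap.

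ATP6 took 4.24, 4.15 and 4.28% of the mitochondrial counts in the same controls, a range of 0.13 percentage points. It took 4.28% in EA30, 4.00% in EA45 and 4.57% in TMZ600. The share was 3.08% in TMZ320EA35, 3.61% in TMZ380EA20 and 4.06% in TMZ580EA20. EA45 and the 3 combinations lay below all controls, and EA30 and TMZ600 above them. Of the 13 mitochondrial genes, 5 lay above all controls in EA30 and 6 in TMZ600. Below all controls were 6 in EA45 and TMZ320EA35, and 5 in TMZ380EA20 and TMZ580EA20. For ATP6 the binomial intervals, which cover counting error only, did not separate all libraries from the controls. That of EA30 (4.21 to 4.36%) lay inside that of Control3 (4.17 to 4.38%). Those of EA45 (3.91 to 4.09%) and TMZ580EA20 (3.97 to 4.15%) overlapped that of Control2 (4.04 to 4.26%). The log2 difference between treated and control libraries was -0.11 (exact permutation test, two-sided, p = 0.429), and its sign depended on the reference: ATP6 as a share of all counts gave 0.085 and ATP6 relative to COX3, the next gene on the strand, gave 0.23. Without TMZ320EA35 the difference in the share of mitochondrial counts was -0.044. Between libraries with and without EA, the grouping chosen after the values were seen, it was -0.19 (exact permutation test, two-sided, p = 0.0635). In this grouping 4 of the 5 with EA lay below all 4 without. Of the log2 difference of -1.12 in the ratio, the share of ATP8 thus made up -1.23, and the share of ATP6, being lower too, offset it by 0.11. Together both genes held 8.47 ± 0.49% of the mitochondrial counts in the controls (SD, n = 3), and between 4.13% (TMZ320EA35) and 8.77% (TMZ600) in the treated libraries.

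**Figure D2:**
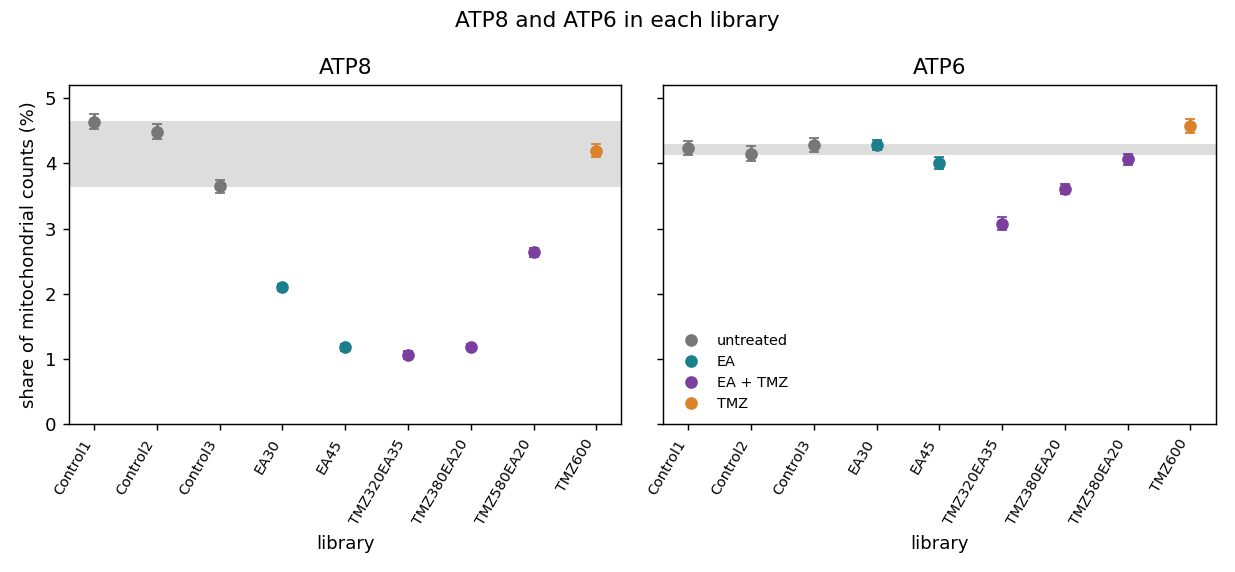
Share of the counts on the 13 mitochondrial protein genes (y axis, %) for ATP8 (left) and ATP6 (right) in each library (x axis), with 95% exact binomial intervals that cover counting error only; the grey band spans the 3 controls. ATP8 ranges from 1.06 to 4.63% and ATP6 from 3.08 to 4.57%.

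Per base of gene length, ATP8 was counted more densely than ATP6 in untreated cells. The ratio per length was 3.60 in Control1, 3.56 in Control2 and 2.81 in Control3, and 4.31, 4.27 and 3.36 when the 46 shared bases were left out of both lengths. In treated libraries it lay between 0.971 (EA45) and 3.02 (TMZ600). In libraries from transcript 3′ ends counts need not scale with length, so this gives a density of counts and not a number of molecules.

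Across the 9 libraries the log2 ratio of ATP8 to ATP6 was lower at higher concentrations of EA. Pearson's r was -0.91 (exact permutation p = 0.00212, adjusted p = 0.00873 over 6 relations) and Spearman's rho -0.88 (exact permutation p = 0.00397, adjusted p = 0.0119). The share of ATP8 gave r = -0.89 (exact permutation p = 0.00291, adjusted p = 0.00873) and rho = -0.91 (exact permutation p = 0.00132, adjusted p = 0.00794). For the share of ATP6 the values were -0.55 (exact permutation p = 0.137, adjusted p = 0.274) and -0.59 (exact permutation p = 0.104, adjusted p = 0.209). With the concentration of TMZ, r was -0.092 for the ratio, -0.11 for the share of ATP8 and -0.15 for the share of ATP6 (exact permutation, adjusted p = 0.810 for each), and rho was -0.11, -0.15 and -0.091 (exact permutation, adjusted p = 0.834 for each). Without TMZ600 and TMZ580EA20, which lie farthest from the median TMZ concentration, these r were -0.60, -0.68 and -0.87 (exact permutation, adjusted p = 0.238, 0.229 and 0.143), in the order ratio, share of ATP8 and share of ATP6. In the 6 treated libraries alone they were positive, at 0.65, 0.54 and 0.065 (exact permutation, adjusted p = 0.333, 0.38 and 0.883). Without EA45 and Control1, which lie farthest from the median EA concentration (Control1 tied with the other libraries without EA), r with EA was -0.87 for the ratio (exact permutation p = 0.019, adjusted p = 0.0571), -0.86 for the share of ATP8 (exact permutation p = 0.0143, adjusted p = 0.0571) and -0.68 for that of ATP6 (exact permutation p = 0.0857, adjusted p = 0.143). In the 6 treated libraries alone it was, for the ratio, -0.83 (exact permutation p = 0.0444, adjusted p = 0.15). In those 6 libraries the doses of EA and TMZ were themselves correlated with r = -0.81. No correlation was computed over the 5 libraries with EA alone, where the ratio did not follow the EA concentration step by step: it was 0.328 and 0.649 at 20 µM, 0.491 at 30 µM, 0.343 at 35 µM and 0.295 at 45 µM. The correlations over 9 libraries therefore rest in part on the 4 libraries at 0 µM.

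In the edgeR quasi-likelihood fit over all transcripts, which takes the spread from the 3 controls and scales libraries by TMM, ATP8 fell with EA30, EA45, TMZ320EA35 and TMZ380EA20. TMM-scaled CPM (a gene's counts relative to its library's effective total) of ATP8 were 21041, 20474 and 16673 in Control1, Control2 and Control3, and 13706 in EA30. This is a log2 fold change of -0.50 with a standard error (SE) of 0.13 (edgeR adjusted p = 0.00378). In EA45 ATP8 had 7116 CPM and a log2 fold change of -1.45 (SE 0.14, edgeR adjusted p = 1.58e-11). In TMZ320EA35 it had 6102 CPM and -1.67 (SE 0.14, edgeR adjusted p = 2.98e-13). In TMZ380EA20 it had 7688 CPM and -1.33 (SE 0.14, edgeR adjusted p = 1.85e-10). TMZ580EA20 had 16514 CPM, just under the lowest control, and -0.23 (SE 0.13, edgeR adjusted p = 0.193). With the mitochondrial scaling that value was -0.69 and passed (edgeR adjusted p = 1.76e-05). TMZ600 had 19439 CPM, within the controls, and 0.0033 (SE 0.12, edgeR adjusted p = 0.995). ATP8 in the 5 libraries with EA thus lay below the 4 without, as it did for 5.66% of the 618 transcripts tested. For EA30, leaving out Control2 gave a log2 fold change of -0.44 that did not pass (edgeR adjusted p = 0.107), while leaving out Control1 gave -0.44 as well and passed (edgeR adjusted p = 4.69e-05). With the mitochondrial scaling the value in EA30 was -1.02 (edgeR adjusted p = 9.84e-09).

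ATP6 rose on the TMM scale in 4 of 6 treatments, a direction that turned in 3 of them (EA45, TMZ380EA20 and TMZ580EA20) when libraries were scaled to their mitochondrial counts. It had 19237, 18928 and 19553 CPM in the same controls. EA30 showed 27935 CPM and a log2 change of 0.54 (SE 0.11, edgeR adjusted p = 0.000171), and in TMZ580EA20 25445 CPM and 0.40 (SE 0.11, edgeR adjusted p = 0.0042). EA45 gave 24104 CPM and 0.33 (SE 0.11, edgeR adjusted p = 0.0132), and TMZ380EA20 23452 CPM and 0.29 (SE 0.11, edgeR adjusted p = 0.0452). TMZ320EA35 had 17773 CPM, the only treated library below the controls, and -0.11 (SE 0.11, edgeR adjusted p = 0.424). TMZ600 had 21184 CPM and 0.14 (SE 0.11, edgeR adjusted p = 0.505). With the mitochondrial scaling the values were 0.022 in EA30, -0.078 in EA45, -0.23 in TMZ380EA20 and -0.056 in TMZ580EA20, none of which passed, and -0.46 in TMZ320EA35, which did (edgeR adjusted p = 0.000683). The median log2 change of all tested transcripts in the single treatments lay between -0.64 and -0.025 under that scaling and between -0.13 and -0.0017 under TMM. Without Control2, ATP6 missed the threshold in EA45 (edgeR adjusted p = 0.177), TMZ380EA20 (0.303) and TMZ580EA20 (0.123), and without Control3 it did so in TMZ380EA20 (0.0957).

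These calls stand against a background that differed between treatments. Of the transcripts tested, edgeR called 17.3% at an adjusted threshold of 0.05 in EA30, 38.8% in EA45, 43.9% in TMZ320EA35, 24.8% in TMZ380EA20, 23.1% in TMZ580EA20 and 9.87% in TMZ600. Both genes passed in EA30, EA45 and TMZ380EA20, 1 of them in TMZ320EA35 (ATP8) and TMZ580EA20 (ATP6), and neither in TMZ600.

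**Figure D3:**
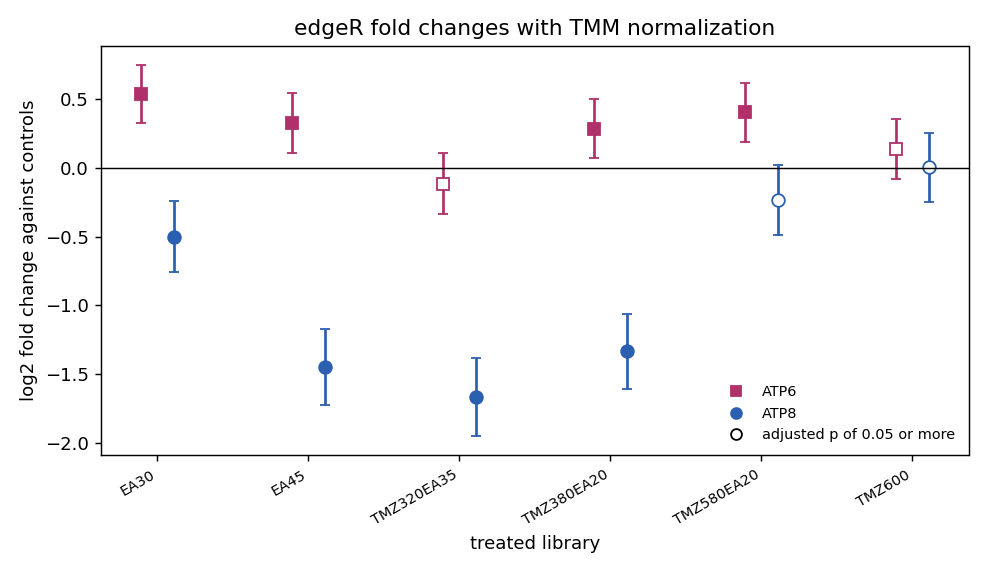
edgeR log2 fold changes against the 3 controls (y axis) of ATP6 (squares) and ATP8 (circles) in the 6 treated libraries (x axis), with 95% confidence intervals of the fit; open symbols have an adjusted p of 0.05 or more. ATP8 reaches -1.67 in TMZ320EA35, while ATP6 lies between -0.11 and 0.54.

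Neither gene passed when the 6 treatments were pooled and set against the controls. ATP8 had a log2 fold change of -0.72 (SE 0.33, edgeR adjusted p = 0.183) and ATP6 one of 0.28 (SE 0.16, edgeR adjusted p = 0.29), where 6.8% of the transcripts tested were called. In this fit the differences between treatments count as spread. Without the filter on low counts ATP8 passed, with a log2 fold change of -0.69 (edgeR adjusted p = 0.0204).

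In the dose model, ATP8 had an average log2 slope of -0.33 per 10 µM EA (SE 0.068, edgeR adjusted p = 0.00321), a term that called 27.5% of the transcripts. ATP8 did not fall step by step. Its TMM-scaled CPM were 7688 and 16514 at 20 µM EA, 13706 at 30 µM, 6102 at 35 µM and 7116 at 45 µM. Per 100 µM TMZ its change was -0.014 (SE 0.042, edgeR adjusted p = 0.879), with 3.72% of the transcripts called. For ATP6 the EA term was 0.065 (SE 0.044, edgeR adjusted p = 0.30) and the TMZ term 0.012 (SE 0.028, edgeR adjusted p = 0.862). Without TMZ320EA35 the EA term of ATP6 was 0.11 and passed (edgeR adjusted p = 0.0423). The product of both doses, which measures a departure of the combinations from the sum of both terms, gave -0.028 for ATP8 (SE 0.033) and -0.021 for ATP6 (SE 0.022), both with an edgeR adjusted p of 0.985. The value of ATP8 was -0.14 without TMZ600, -0.074 without TMZ580EA20 and -0.0012 without TMZ320EA35, and passed in none of these fits (lowest edgeR adjusted p = 0.245), and that of ATP6 was -0.12 without TMZ600 and 0.0036 without TMZ320EA35. This term called 0 transcripts (0%) in edgeR, with 27 at an unadjusted p under 0.05, 0 in limma-voom and 1 in DESeq2.

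Treated libraries were also compared with each other, in 3 comparisons chosen after the values were seen. From EA30 to EA45 the log2 change of ATP8 was -0.95 (SE 0.16, edgeR adjusted p = 2.8e-05), in a comparison that called 9.71% of the transcripts, and ATP6 changed by -0.21 (SE 0.13, edgeR adjusted p = 0.334). At 20 µM EA, ATP8 was higher with 580 than with 380 µM TMZ by 1.10 (SE 0.16, edgeR adjusted p = 3.73e-06), with 8.25% of the transcripts called, and ATP6 differed by 0.12 (SE 0.13, edgeR adjusted p = 0.644). The ratio of ATP8 to ATP6 thereby differed 1.98-fold between these libraries, a log2 difference of 0.99 against a standard deviation of 0.20 among the controls. TMZ580EA20 against TMZ600, which differ by 20 µM EA and also in TMZ concentration, gave -0.24 for ATP8 (SE 0.15, edgeR adjusted p = 0.502; 95% interval -0.54 to 0.073) and 0.26 for ATP6 (SE 0.13, edgeR adjusted p = 0.345), with 5.66% of the transcripts called. In the mitochondrial scaling the ATP8 difference was -0.67 and passed (edgeR adjusted p = 0.00152). Each of these compares 1 library with another, with the spread of the controls.

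Beside the other mitochondrial genes, ATP8 had the lowest change of share in EA30, EA45, TMZ320EA35 and TMZ380EA20, with log2 values of -1.02, -1.85, -2.01 and -1.85 relative to the control mean. In TMZ580EA20 its value of -0.69 was the lowest but for ND3 (-0.82), and in TMZ600 it was -0.02. The gene upstream on the genome, COX2 (a cytochrome oxidase subunit), kept between -0.11 and 0.11 in all 6 libraries. Downstream, ATP6 lay between -0.46 and 0.12 and COX3 between -0.47 and -0.13. The falls of ATP8 thus sat between genes of the same strand whose shares moved less. The shares of ND4L and ND1 (complex I) and COX1 (cytochrome oxidase) were higher, up to 1.63, 1.14 and 1.13, while among other complex I genes ND3 reached -0.82 and ND6 -1.87.

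ND6, the one protein gene on the other strand, had a pattern near that of ATP8 from far fewer counts (14 to 108 per library). Its share changed by -0.64 in EA30, -1.70 in EA45, -1.87 in TMZ320EA35 and -0.79 in TMZ380EA20, and by 0.35 and 0.56 in TMZ580EA20 and TMZ600. Across the 9 libraries the log2 shares of ATP8 and ND6 had r = 0.88, those of ATP8 and COX3 0.88 and those of ATP8 and ATP6 0.77, as a description over shares that add up to 1 whole. The mitochondrial share of all counts, a trait of the library, moved against the ratio of ATP8 to ATP6 (r = -0.72 over 9 libraries), and the total count less so (r = -0.27); their part in the result was not tested.

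**Figure D4:**
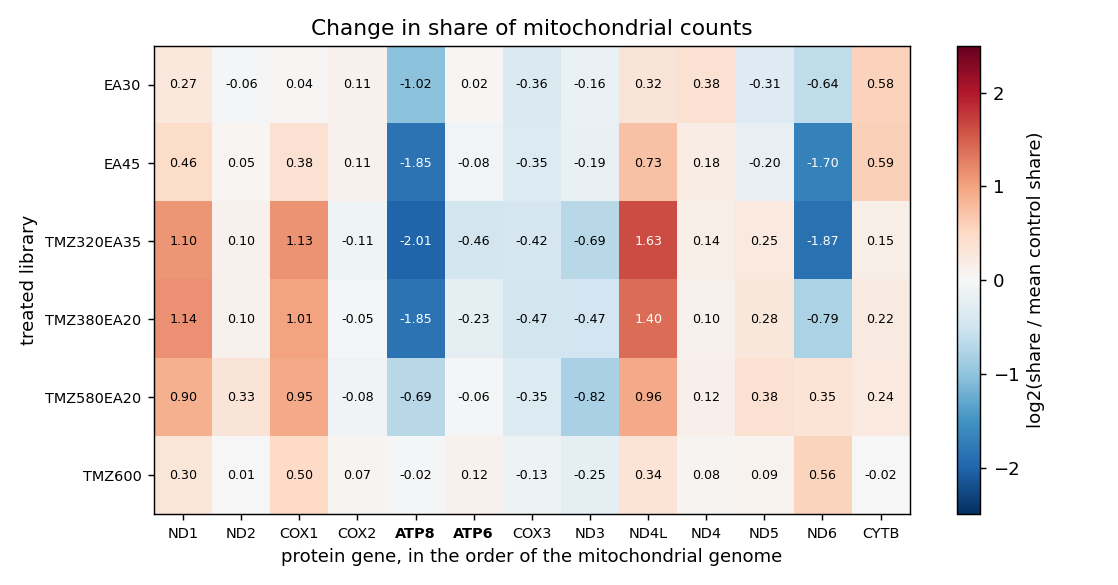
Log2 of the share of mitochondrial counts over the mean share of the 3 controls, for the 13 protein genes in genome order (x axis) and the 6 treated libraries (y axis); red is higher and blue lower than the controls. The column of ATP8 reaches -2.01 in TMZ320EA35, and its neighbours COX2 and ATP6 stay between -0.46 and 0.12.

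In the edgeR fit on the TMM scale, where the mitochondrial genes as a group were higher, 7 of the 13 rose per 10 µM EA, 1 fell (ATP8) and 5 did not pass, with a median of 0.12 against -0.007 over all transcripts tested. In EA30, 9 of the 13 rose and ATP8 alone fell. In EA45, 8 rose and ATP8 and ND6 fell. In TMZ320EA35, 8 rose and ATP8, ND6 and ND3 fell. In TMZ380EA20, 9 rose and ATP8 alone fell, and in TMZ580EA20, 9 rose and ND3 alone fell. In TMZ600, 2 rose (COX1 and ND4L), 0 fell and 11 did not pass. Over all transcripts tested, in both directions, the shares called in these treatments were 17.3% (EA30), 38.8% (EA45), 43.9% (TMZ320EA35), 24.8% (TMZ380EA20), 23.1% (TMZ580EA20) and 9.87% (TMZ600), and 27.5% for the EA term.

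Nuclear genes of the same enzyme could hardly be measured. Of 24 genes for subunits and assembly factors of ATP synthase, 20 were listed at 0 in all libraries, which in an enzyme of every respiring cell cannot be read as absence, and 1 could be tested. That gene, ATP5F1D (NM_001687.5), the delta subunit of the catalytic part, was counted 33, 39 and 33 times in the controls and 14 to 48 times after treatment. Its log2 fold change lay between -0.81 (TMZ320EA35) and 0.29 (TMZ380EA20), and the lowest edgeR adjusted p was 0.233. Of 30 names for genes of mitochondrial RNA synthesis, processing and turnover, 22 were at 0, 7 had at most 6 counts in any library and 0 could be tested. FASTKD5, which is needed to free mRNA ends that no tRNA marks, such as the junction of ATP6 and COX3, had 1 count in TMZ600 and 0 elsewhere.

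Among 605 nuclear transcripts, those whose log2 CPM followed ATP8 most closely over the 9 libraries were XR_002959456.1 (LOC112268432, r = 0.978), VPS33B-DT (NR_110104.1, r = 0.978) and FLJ32255 (NR_104643.1, r = 0.967), which carry RefSeq accessions of non-coding RNA. Unscaled, FLJ32255 had 264, 221 and 260 counts in the controls, 260 in EA30, 91 in EA45, 52 in TMZ320EA35, 137 in TMZ380EA20, 224 in TMZ580EA20 and 237 in TMZ600, from libraries that differ in depth. ATP6 was followed most closely by ROCK1 (NM_005406.3, a kinase of the cytoskeleton, r = 0.917), SOWAHB (r = 0.872) and SEC22B (a vesicle transport protein, r = 0.837). The members themselves, though parts of 1 mRNA, had r = -0.095 with each other on this scale. All points share the scaling of their library.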

How the data were processed

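Libraries of U-87 cells were QuantSeq 3′ mRNA libraries (Lexogen) that the authors sequenced, 3 untreated and 6 treated, 1 per treatment. The authors deposited raw counts per RefSeq transcript or mitochondrial protein accession, not normalized. The submitters' processing notes name HISAT2, HTSeq and the build hg38, with versions and counting settings not given in the sources used here. Symbols came from the RefSeq table of GRCh38.p14 and positions and sequences from GENCODE release 29 (GRCh38). Members were found by accession. They and the gene lists were chosen with earlier results of these data known.

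The 618 transcripts averaging 10 counts or more per library were fitted with edgeR 4.0.16 in R 4.3.3 (TMM, quasi-likelihood F-test, Benjamini-Hochberg adjustment over all transcripts tested, threshold 0.05), with 1 coefficient per condition, with the 6 treatments as 1 group, or with terms per 10 µM EA and per 100 µM TMZ. A test for the sequencing counts is not given in the sources used here. Per-library values used 2-sided exact permutation tests over libraries on the log2 scale. Intervals of counts are 95% exact (Clopper-Pearson) binomial intervals from scipy 1.17.1. Fits were also run on counts simulated with the spread of the controls, which cannot test whether a treated library varies like the controls. Alternatives were DESeq2 size factors, TMM on nuclear transcripts, scaling to mitochondrial counts, DESeq2 1.42.0, limma-voom (limma 3.58.1), no filter or a mean of at least 50 counts, the treated library with the controls alone, and leaving out single libraries. Log2 CPM for likeness had a prior count of 2. The named genes are both members, the other mitochondrial protein genes, list genes that could be tested and the 3 nuclear transcripts with the highest Pearson correlation with each member.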

Additional observations from a re-analysis of the deposited data

How the results depend on the processing

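Of 368 alternatives over 35 results, 316 kept direction and side of the threshold, 28 lost the threshold, 5 gained it and 19 changed sign. The cause was not tested except where the alternative itself gives it. The fall of ATP8 with EA45, TMZ320EA35 and TMZ380EA20 and its EA term kept their call under every alternative run. Scaled to mitochondrial counts, which removes the shared rise of these genes, ATP6 had log2 changes of 0.022 in EA30, -0.078 in EA45, -0.46 in TMZ320EA35, -0.23 in TMZ380EA20, -0.056 in TMZ580EA20, -0.10 over 6 treatments, -0.052 per 10 µM EA, -0.0098 per 100 µM TMZ and -0.17 in TMZ580EA20 against TMZ600, and ATP8 had -0.69 in TMZ580EA20, -0.020 in TMZ600 and -0.67 in TMZ580EA20 against TMZ600. Without a filter ATP6 in TMZ380EA20 was 0.31 (edgeR adjusted p = 0.219) and ATP8 over 6 treatments -0.69. With a mean of at least 50 counts they were 0.21 for ATP6 in TMZ380EA20 and -0.027 for ATP8 in TMZ600. The share of ATP6 changed by 0.085 as a share of all counts and by 0.23 relative to COX3. In the 6 treated libraries alone, r with EA was -0.83 for the ratio and -0.79 for the share of ATP8, and r with TMZ was 0.65 for the ratio, 0.065 for the share of ATP6 and 0.54 for that of ATP8. Without the 2 libraries farthest from the median dose, r with EA was -0.87 for the ratio and -0.86 for the share of ATP8.

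Leaving out single libraries gave -0.60 to -0.44 for ATP8 in EA30, -0.10 (without Control3) to 0.060 for ATP8 in TMZ600, and, for ATP6, 0.32 to 0.33 in EA45, 0.28 to 0.29 in TMZ380EA20 and 0.40 to 0.41 in TMZ580EA20. The EA term of ATP6 ranged from 0.039 to 0.11, the TMZ term of ATP6 from -0.00036 (without TMZ580EA20) to 0.026, that of ATP8 from -0.071 to 0.0088 (without EA30; 0.0036 without TMZ380EA20), and the product term of ATP6 from -0.12 to 0.0036 (without TMZ320EA35) and of ATP8 from -0.14 (without TMZ600) to -0.0012 (without TMZ320EA35). The difference in the share of ATP6 ranged from -0.16 (without TMZ600) to -0.044 (without TMZ320EA35). The ratio difference ranged from -1.32 to -0.99 and that of the share of ATP8 from -1.48 to -1.08, with exact permutation p between 0.0357 and 0.143. With 2 controls left, 0.0714 is the smallest p possible, so those tests say nothing about stability. No paired analysis was possible because each treatment has 1 library and the control numbers pair with nothing. With no replicate of any treatment, its fits assume that the treated library varies like the controls.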
